A study of Homo sapiens with 6 samples.

Results

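The genes described here encode the collagens and the proteins that fold, hydroxylate and cross-link them. They were taken as every protein-coding gene with a collagen chain symbol (44 genes), together with 18 named genes: the collagen chaperone SERPINH1, the prolyl 4-hydroxylases P4HA1, P4HA2, P4HA3 and P4HB, the lysyl hydroxylases PLOD1, PLOD2 and PLOD3, the lysyl oxidases LOX and LOXL1 to LOXL4, and the matrix proteins EMILIN1, EMILIN2, LUM, DCN and FBLN1. That made 62 of the 60664 genes in the table, and 39 of them passed the filter for testing, an expression of at least 1 RPKM (read count adjusted for gene length and library size) in at least 3 libraries.

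RNA-seq was run on cells labelled LNCaP, a human prostate cancer line that was derived from a lymph node metastasis and responds to androgen. The sample titles say LNCaPE, and the design text describes cells made resistant to the antiandrogen enzalutamide, so the drug resistance is shared by both groups. The shPDGFC cells (3 libraries) carried a stably expressed short hairpin RNA against PDGFC, and their controls carried the hairpin labelled shNC (3 libraries). The sources used here do not give the hairpin sequences, the number of hairpins or clones, or whether enzalutamide was in the medium at harvest. The labels speak of pooled RNA and do not say that the libraries came from separate cultures. The p-values therefore measure only how far these libraries scatter, and that scatter may be technical.

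Collagens are made of chains that wind into a triple helix in the endoplasmic reticulum. Before the helix closes, prolyl 4-hydroxylases modify proline residues so that the helix is stable at body temperature, and lysyl hydroxylases modify lysines that later carry sugars and cross-links. SERPINH1, also called HSP47, binds the folded helix and keeps it from aggregating on its way to the Golgi. Outside the cell, lysyl oxidases join the assembled chains. Fibrillar collagens build fibres, type IV collagen builds basement membranes, type VI collagen forms beaded filaments around cells, and FACIT collagens coat the fibrils. In prostate tumours most collagen is made by stromal fibroblasts, while the epithelial cells contribute basement membrane.

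The library totals behind the RPKM values were 17360455, 20905911 and 20115873 reads in shPDGFC and 23930217, 18258988 and 22959212 reads in shNC, of which the genes of the table held between 99.45 and 99.46%. The targeted gene PDGFC, a secreted growth factor, measured 3.0, 2.43 and 2.52 RPKM in the shPDGFC libraries, against 8.19, 8.71 and 8.13 RPKM in the shNC libraries, and it fell to 0.318 times the shNC level (log2 change -1.36 ± 0.066 SE, adjusted p = 0.00016, limma with Benjamini-Hochberg adjustment). The luminal markers KRT8 (86.3 RPKM in shPDGFC and 81.1 RPKM in shNC) and KRT18 (77.2 RPKM in shPDGFC and 60.7 RPKM in shNC) were present. The defining prostate markers KLK3 and KLK2 had 0 reads each in shPDGFC and 1 read each in shNC, which goes against the usual profile of LNCaP. Of 14 fibroblast and smooth muscle markers 6 were tested, 2 rose and 1 fell, where 14.2% of all tested genes rose and 15.6% fell. Their summed level ranged between 363 and 377 RPKM in shPDGFC and between 304 and 310 RPKM in shNC, almost all of it VIM, which rose (333 RPKM in shPDGFC and 270.4 RPKM in shNC; log2 change 0.30 ± 0.027 SE, adjusted p = 0.00077). Of these markers PDPN also rose (22.47 RPKM in shPDGFC and 20.01 RPKM in shNC; log2 change 0.161 ± 0.045 SE, adjusted p = 0.0327, limma). ACTA2 fell (7.097 RPKM in shPDGFC and 9.156 RPKM in shNC; log2 change -0.328 ± 0.054 SE, adjusted p = 0.00498, limma). The fibroblast marker THY1 had 0 reads in all 6 libraries. Endothelial markers were under 0.2 RPKM on average for 6 of 7 genes and immune markers for 5 of 7. Mitochondrially encoded genes took 4.18, 4.66 and 4.18% of the reads in shPDGFC and 3.73, 4.06 and 3.86% in shNC, and with these genes left out of the totals 8 collagen genes rose and 12 fell. The part of the VIM shift in the results on collagen genes was not tested. In bulk RNA, fewer cells of a type and less RNA per cell cannot be told apart.

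Of the 39 tested collagen genes, 19 passed the test in shPDGFC against shNC (48.7%), where 29.8% of all 15337 tested genes did. Those that rose were 7 (17.9%, against 14.2% of all tested genes), namely EMILIN2, COL12A1, COL3A1, P4HA2, FBLN1, PLOD1 and COL6A1. Those that fell were 12 (30.8%, against 15.6%), namely SERPINH1, LUM, COL5A1, COL9A2, COL27A1, COL5A2, COL14A1, LOX, PLOD2, P4HA1, COL4A1 and COL2A1. Of the 44 chain genes, 24 were tested, 3 rose and 7 fell. Of the 18 other genes, 15 were tested, 4 rose and 5 fell. The median log2 change was -0.10 over the 39 tested genes and -0.01 over all tested genes. Most of the changes were small, and 4 of the 19 exceeded 1.5-fold in mean RPKM: SERPINH1, EMILIN2, COL3A1 and COL12A1. COL3A1 reached the filter only through the shPDGFC libraries, where it is high, so its call is no support for a rise. Of the 37 genes at the filter in all 6 libraries, 6 rose (16.2%) and 12 fell (32.4%), and 3 of these exceeded 1.5-fold. The count of genes that fell depended on single libraries, at 7 without shPDGFC replicate 2 and 7 without shNC replicate 3, and it was 7 with no filter on low values.

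The shPDGFC and shNC libraries did not overlap in 30 of the 39 tested genes, 11 higher and 19 lower, where 46.8% of all tested genes did not overlap (21.7% higher, 25.1% lower). All 19 genes that passed were among them. COL3A1, counted as higher, reached the filter only through shPDGFC, and COL4A3, counted as lower, only through shNC. Their lack of overlap was fixed by the filter and is no support for a change. Summed over all 62 genes, the level was 612, 601 and 614 RPKM in shPDGFC against 638, 639 and 647 RPKM in shNC. As a share of all reads this was 0.227, 0.223 and 0.229% in shPDGFC against 0.236, 0.236 and 0.241% in shNC, so all 3 shPDGFC sums lay below the 3 shNC sums. In RPKM, most of this gap lay in SERPINH1 (means 32.6 in shPDGFC and 55.8 in shNC) and PLOD2 (93.5 in shPDGFC and 104.4 in shNC). The sums do not describe a fall of every gene, as 11 tested genes, COL3A1 among them by the filter, lay higher in shPDGFC without overlap. PLOD2 and P4HB, a lysyl hydroxylase and a prolyl 4-hydroxylase subunit, made up 32.9% of the reads on these genes.

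**Figure D1:**
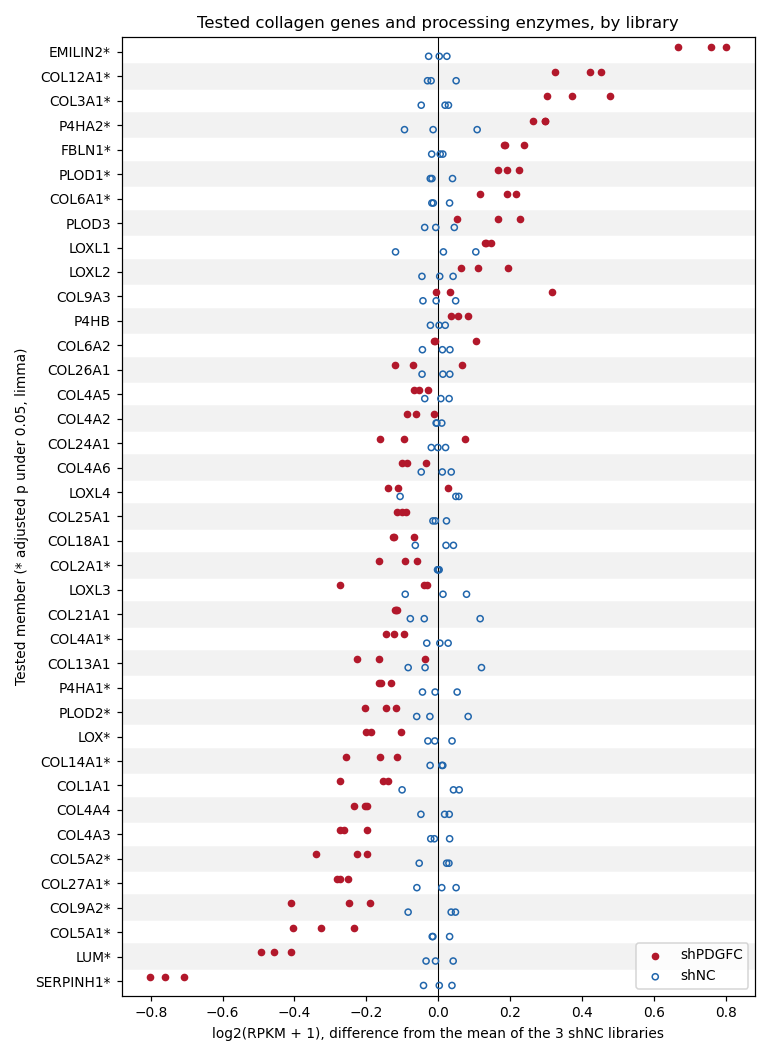
Log2(RPKM + 1) of the 39 tested collagen genes in each library, as the difference from the mean of the 3 shNC libraries, with shPDGFC as filled red points, shNC as open blue points, genes ordered by log2 change and an asterisk for an adjusted p under 0.05. EMILIN2 at the top and SERPINH1 at the bottom show the widest gaps between the groups, and all 19 genes with an asterisk have groups that do not overlap.

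**Figure D2:**
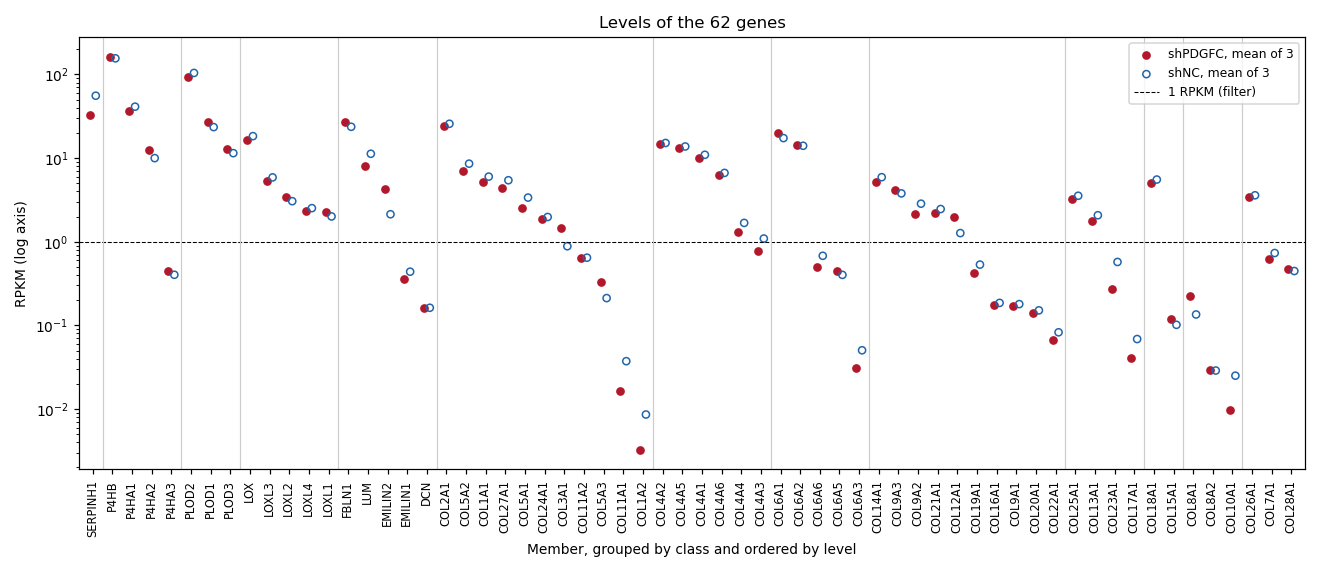
Mean RPKM of all 62 genes (log axis) in shPDGFC (filled red) and shNC (open blue), 3 libraries each, grouped by class and ordered by level within a class, with the filter at 1 RPKM as a dashed line. P4HB lies highest and COL1A2 lowest, and the 23 genes that were not tested lie below the line in both groups.

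The chaperone SERPINH1 showed the largest fall among the collagen genes that passed. It measured 31.6, 33.7 and 32.5 RPKM in the shPDGFC libraries, against 55.9, 57.3 and 54.2 RPKM in the shNC libraries. The groups are far apart, and the lowest shNC library is well above the highest shPDGFC library. SERPINH1 (ENSG00000149257, chromosome 11, 75562056 to 75572783, plus strand, GRCh38) averaged 32.6 ± 1.1 RPKM in shPDGFC and 55.8 ± 1.6 RPKM in shNC (SD, n = 3 each). It thus fell to 0.585 times the shNC level (log2 change -0.76 ± 0.033 SE, adjusted p = 0.00011, limma). P4HB, the most abundant of the collagen genes, did not pass the test, although its 3 shPDGFC values lay above the 3 shNC values. The ratio of SERPINH1 to P4HB was 0.191, 0.208 and 0.203 in shPDGFC against 0.357, 0.362 and 0.352 in shNC. The higher P4HB values in shPDGFC add to the gap in this ratio. Relative to P4HB as well, the SERPINH1 values of the groups did not overlap.

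SERPINH1 is a known target of heat shock factor 1, and its promoter is shown for that reason. The sequence covers the 300 bases at chr11:75562003-75562302 of the RefSeq annotation of GRCh38.p14, plus strand, with 250 bases before and 50 bases after the transcription start. Capitals mark a match to a heat shock element of 3 alternating units, written TTCNNGAANNTTC and searched on both strands. The match lies 76 to 64 bases before the RefSeq start. By the GENCODE gene coordinates given above, which begin farther upstream, it lies inside the gene.
SERPINH1: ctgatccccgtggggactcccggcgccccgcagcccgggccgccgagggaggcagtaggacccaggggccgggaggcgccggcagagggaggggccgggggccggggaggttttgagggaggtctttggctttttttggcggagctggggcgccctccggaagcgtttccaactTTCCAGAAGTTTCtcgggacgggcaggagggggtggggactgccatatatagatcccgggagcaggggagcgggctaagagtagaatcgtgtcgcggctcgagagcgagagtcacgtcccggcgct
This motif occurs in 172 of 35116 RefSeq promoters (0.49%) and in 1 of the 45 collagen genes whose promoter was in the table, SERPINH1 itself. In a list of 21 heat shock factors and chaperones, 6 of the 19 genes with a promoter carry it (CHORDC1, DNAJA1, HSP90AA1, HSP90AB1, HSPA8 and HSPD1). Of the 21 genes of that list, all tested, 11 rose and 1 fell, where 14.2% of all tested genes rose and 15.6% fell, with a median log2 change of 0.10. The co-chaperone AHSA1 measured 149, 144 and 143 RPKM in shPDGFC and 114, 112 and 116 RPKM in shNC (log2 change 0.35 ± 0.026 SE, adjusted p = 0.00040). The J-domain protein DNAJB1 measured 40.2, 41.2 and 40.1 RPKM in shPDGFC and 34.2, 34.3 and 33.4 RPKM in shNC (log2 change 0.25 ± 0.024 SE, adjusted p = 0.00083). HSPA4L, the gene of that list that fell, measured 11.2 RPKM in shPDGFC and 12.2 RPKM in shNC (log2 change -0.11 ± 0.032 SE, adjusted p = 0.034). The match describes the letters of the promoter and does not show that a factor binds there.

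The nearest tested protein-coding genes on each side of SERPINH1 on chromosome 11 mostly did not pass the test. Genes that were untested or noncoding were not considered. ARRB1 (0.08, adjusted p = 0.21) and GDPD5 (-0.10, adjusted p = 0.39) on one side, and DGAT2 (-0.06, adjusted p = 0.73), UVRAG (-0.05, adjusted p = 0.33) and WNT11 (0.05, adjusted p = 0.52) on the other, had log2 changes between -0.10 and 0.08. RPS3, a ribosomal protein gene that ends 139776 bases before SERPINH1 begins, fell (482 RPKM in shPDGFC and 569.9 RPKM in shNC; log2 change -0.24 ± 0.031 SE, adjusted p = 0.0020).

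The prolyl 4-hydroxylases went in different directions. The enzyme is a tetramer in which P4HA1, P4HA2 or P4HA3 is the catalytic subunit and P4HB, a protein disulfide isomerase, is the partner. P4HA1 measured 36.6, 36.8 and 37.5 RPKM in the shPDGFC libraries, against 39.96, 40.97 and 42.8 RPKM in the shNC libraries. P4HA2 measured 12.5, 12.5 and 12.2 RPKM in the shPDGFC libraries, against 9.87, 9.29 and 10.8 RPKM in the shNC libraries. Each pair of groups was without overlap, with P4HA1 lower and P4HA2 higher in shPDGFC. P4HA1 fell (log2 change -0.15 ± 0.030 SE, adjusted p = 0.0092) and P4HA2 rose (log2 change 0.29 ± 0.052 SE, adjusted p = 0.0069; both limma). P4HB measured 165, 162 and 159.9 RPKM in the shPDGFC libraries, against 156, 158 and 154 RPKM in the shNC libraries, and did not pass (log2 change 0.06 ± 0.024 SE, adjusted p = 0.11). Its groups did not overlap, with P4HB higher in shPDGFC. The ratio of P4HA1 to P4HA2, which was chosen after the values were seen, was 2.94, 2.95 and 3.08 in shPDGFC against 4.05, 4.41 and 3.95 in shNC. P4HA1 thus remained the more abundant of the catalytic subunits in both groups on the RPKM scale. P4HA3 was below the filter (0.447 RPKM in shPDGFC and 0.402 RPKM in shNC). Exons of P4HA2 overlap those of an antisense gene that had 2 reads in all, so little of the P4HA2 count can come from it.

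Lysyl hydroxylases showed the same kind of split. PLOD1, which modifies lysines inside the helix, measured 26.9, 26.5 and 27.6 RPKM in the shPDGFC libraries, against 24.2, 23.2 and 23.1 RPKM in the shNC libraries. PLOD2, which modifies the telopeptides at the ends of the chains, measured 94.2, 90.5 and 95.98 RPKM in the shPDGFC libraries, against 99.995, 103 and 111 RPKM in the shNC libraries. Neither gene overlapped between groups, with PLOD1 higher and PLOD2 lower in shPDGFC. PLOD1 rose (log2 change 0.19 ± 0.029 SE, adjusted p = 0.0034), and PLOD2 fell (log2 change -0.16 ± 0.041 SE, adjusted p = 0.028; both limma). The PLOD2 call was lost when shPDGFC replicate 1 or 2 or shNC replicate 2 or 3 was left out, with adjusted p between 0.052 and 0.077. PLOD3, which also transfers sugars to hydroxylysine, averaged 12.8 ± 0.84 RPKM in shPDGFC and 11.5 ± 0.36 RPKM in shNC and did not pass (log2 change 0.15 ± 0.049 SE, adjusted p = 0.059); without shPDGFC replicate 2 it did, at 0.018. PLOD3 shares 429 exon bases with ZNHIT1 on the opposite strand, and without strand their reads cannot be told apart. The ratio of PLOD2 to PLOD1, also chosen after the values were seen, was 3.50, 3.42 and 3.48 in shPDGFC against 4.14, 4.42 and 4.78 in shNC.

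Among the lysyl oxidases, LOX was the most abundant and the one that passed. It measured 15.8, 15.95 and 16.97 RPKM in the shPDGFC libraries, against 18.2, 17.9 and 18.8 RPKM in the shNC libraries, without overlap, and fell (log2 change -0.16 ± 0.035 SE, adjusted p = 0.013, limma). LOX shares 138 exon bases with SRFBP1 on the opposite strand. The related oxidases did not pass: LOXL1 averaged 2.30 RPKM in shPDGFC and 2.01 RPKM in shNC (adjusted p = 0.20), LOXL2 3.42 RPKM in shPDGFC and 3.06 RPKM in shNC (0.14), LOXL3 5.36 RPKM in shPDGFC and 5.88 RPKM in shNC (0.30) and LOXL4 2.35 RPKM in shPDGFC and 2.52 RPKM in shNC (0.49). For LOXL1 and LOXL2 all 3 shPDGFC values nonetheless lay above the shNC values. LOXL1 overlaps LOXL1-AS1, which held more reads than LOXL1 itself, 1571 against 622, so its level is uncertain. LOXL3 overlaps HTRA2 and DOK1 on the opposite strand, and LOXL2 shares 120 exon bases with ENTPD4 on the same strand.

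**Figure D3:**
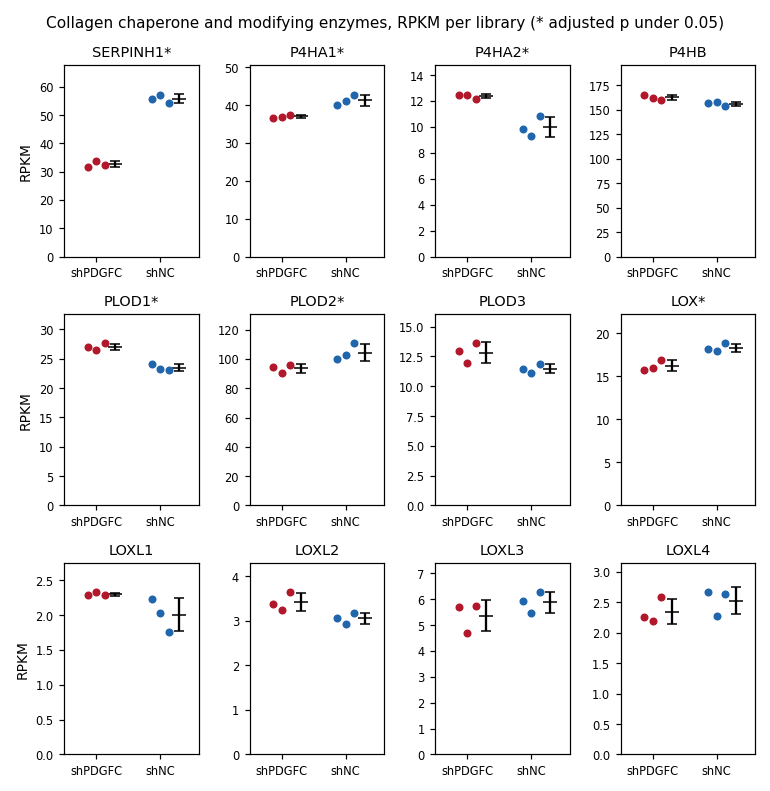
RPKM of SERPINH1 and of the prolyl 4-hydroxylase, lysyl hydroxylase and lysyl oxidase genes in each library, with shPDGFC in red on the left and shNC in blue on the right and bars for the mean and SD (n = 3 each); axes start at 0 and an asterisk marks an adjusted p under 0.05. SERPINH1 is the gene with the widest gap between groups, and P4HA1 and P4HA2, like PLOD2 and PLOD1, point in opposite directions.

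Of 11 fibrillar chain genes 7 were tested, 4 fell (COL5A1, COL5A2, COL27A1 and COL2A1), 1 passed as higher and 2 did not pass, where 15.6% of all tested genes fell. The type V chain COL5A1, which helps start fibril growth, measured 2.31, 2.72 and 2.49 RPKM in the shPDGFC libraries, against 3.47, 3.33 and 3.32 RPKM in the shNC libraries. Its partner chain COL5A2 measured 7.20, 6.57 and 7.35 RPKM in the shPDGFC libraries, against 8.78, 8.24 and 8.74 RPKM in the shNC libraries. Both fell, COL5A1 to 0.743 times the shNC level (log2 change -0.32 ± 0.061 SE, adjusted p = 0.0081) and COL5A2 to 0.820 times (log2 change -0.25 ± 0.048 SE, adjusted p = 0.0082; limma). The ratio of COL5A1 to COL5A2 was 0.321, 0.414 and 0.339 in shPDGFC against 0.395, 0.404 and 0.380 in shNC, so the ratio overlapped between the groups. COL27A1, a chain found in developing cartilage, measured 4.40, 4.29 and 4.32 RPKM in the shPDGFC libraries, against 5.48, 5.17 and 5.66 RPKM in the shNC libraries and fell (log2 change -0.27 ± 0.044 SE, adjusted p = 0.0048).

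COL2A1, the chain of cartilage collagen, was the most abundant chain measured in these cells. It measured 24.7, 22.9 and 24.1 RPKM in the shPDGFC libraries, against 25.8, 25.7 and 25.8 RPKM in the shNC libraries, a fall of small size (log2 change -0.11 ± 0.032 SE, adjusted p = 0.044, limma). The shNC libraries were nearly alike, and the shPDGFC libraries were all below them. The COL2A1 call was lost when any library except shPDGFC replicate 1 was left out (adjusted p between 0.084 and 0.11) and at 0.11 with median-of-ratios scaling. COL1A1, a chain of type I collagen, measured 4.79, 5.35 and 5.29 RPKM in the shPDGFC libraries, against 6.29, 5.53 and 6.21 RPKM in the shNC libraries, and just missed the threshold (log2 change -0.19, adjusted p = 0.0502); without shNC replicate 2 it passed at 0.028. Its partner COL1A2 had 1 read in shPDGFC and 3 reads in shNC, with 0 in 4 of the 6 libraries, where 3 reads in a library correspond to between 0.0247 and 0.0341 RPKM. The message for the second chain of type I collagen was thus at or near 0 at this depth in both groups, and no ratio to COL1A1 was formed.

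COL3A1, a fibrillar chain of soft tissues, measured 1.44, 1.32 and 1.62 RPKM in the shPDGFC libraries, against 0.822, 0.908 and 0.920 RPKM in the shNC libraries, all shPDGFC libraries above all shNC libraries (1.65-fold). As the filter of 1 RPKM lies between the groups, this direction was fixed by the filter, and the values are given as a description. COL24A1 averaged 1.86 RPKM in shPDGFC and 1.98 RPKM in shNC and did not pass (adjusted p = 0.59).

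The FACIT chains were split. COL12A1, which binds type I fibrils, measured 1.84, 2.11 and 2.04 RPKM in the shPDGFC libraries, against 1.22, 1.24 and 1.35 RPKM in the shNC libraries. It rose 1.57-fold without overlap (log2 change 0.40 ± 0.071 SE, adjusted p = 0.0065, limma). COL9A2, a chain of type IX collagen, measured 2.24, 1.90 and 2.37 RPKM in the shPDGFC libraries, against 2.95, 2.63 and 2.98 RPKM in the shNC libraries, and COL14A1 measured 5.39, 4.79 and 5.18 RPKM in the shPDGFC libraries, against 5.96, 5.98 and 5.81 RPKM in the shNC libraries. Both fell (log2 change -0.28 ± 0.077 SE, adjusted p = 0.030 for COL9A2; log2 change -0.18 ± 0.047 SE, adjusted p = 0.028 for COL14A1). The COL14A1 call was lost without any library except shPDGFC replicate 1 (adjusted p between 0.061 and 0.080), and the COL9A2 call without shPDGFC replicate 1 or 2 or shNC replicate 1 or 3 (0.057 to 0.095). COL9A3 (4.21 RPKM in shPDGFC and 3.79 RPKM in shNC; adjusted p = 0.36) and COL21A1 (2.18 RPKM in shPDGFC and 2.46 RPKM in shNC; adjusted p = 0.24) did not pass. COL9A3 shares 45 exon bases with TCFL5 on the opposite strand.

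All 6 genes of type IV, the basement membrane collagen, were tested, although COL4A3 was below 1 RPKM in every shPDGFC library. Apart from COL4A3, whose direction was fixed by the filter, the log2 changes were all negative, between -0.21 and -0.05, but 1 gene passed. COL4A1 measured 9.81, 9.98 and 10.2 RPKM in the shPDGFC libraries, against 10.7, 10.995 and 11.2 RPKM in the shNC libraries, and fell (log2 change -0.12 ± 0.032 SE, adjusted p = 0.026, limma). COL4A2, its partner in the commonest type IV trimer, averaged 14.6 ± 0.41 RPKM in shPDGFC and 15.2 ± 0.096 RPKM in shNC and did not pass (log2 change -0.05 ± 0.029 SE, adjusted p = 0.21). COL4A3 measured 0.745, 0.732 and 0.823 RPKM in the shPDGFC libraries, against 1.14, 1.08 and 1.062 RPKM in the shNC libraries, and COL4A4 measured 1.28, 1.33 and 1.33 RPKM in the shPDGFC libraries, against 1.71, 1.59 and 1.74 RPKM in the shNC libraries. These chains occur in the membranes of kidney and lung, and neither passed although the groups did not overlap (COL4A3 log2 change -0.24 ± 0.081 SE, adjusted p = 0.059; COL4A4 log2 change -0.21 ± 0.068 SE, adjusted p = 0.052). COL4A5 (13.3 RPKM in shPDGFC and 13.8 RPKM in shNC; adjusted p = 0.26) and COL4A6 (6.27 RPKM in shPDGFC and 6.66 RPKM in shNC; adjusted p = 0.20) overlapped between groups. COL4A3 reached the filter through the shNC libraries alone, so its direction and lack of overlap were fixed by the filter. It also shares 120 exon bases with MFF-DT on the opposite strand. The COL4A1 call was lost without shPDGFC replicate 1 or 2 or shNC replicate 2 or 3 (adjusted p between 0.062 and 0.090) and at 0.057 with median-of-ratios scaling.

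Type IV genes lie head to head in pairs. The RefSeq start sites of COL4A1 and COL4A2 are 127 bases apart on opposite strands of chromosome 13, so 226 bases of their 300-base promoter windows are shared. COL4A3 and COL4A4 start 419 bases apart on chromosome 2, and COL4A5 and COL4A6 start 380 or 1416 bases apart on the X chromosome, depending on the COL4A6 transcript. The COL4A1 window is shown because both genes of the pair start from it, one with a called change and the other without. It covers chr13:110307108-110307407 (GRCh38.p14, minus strand, 5′ to 3′), and capitals mark a CCAAT box read on the opposite strand (ATTGG), 26 to 22 bases before the COL4A1 start.
COL4A1: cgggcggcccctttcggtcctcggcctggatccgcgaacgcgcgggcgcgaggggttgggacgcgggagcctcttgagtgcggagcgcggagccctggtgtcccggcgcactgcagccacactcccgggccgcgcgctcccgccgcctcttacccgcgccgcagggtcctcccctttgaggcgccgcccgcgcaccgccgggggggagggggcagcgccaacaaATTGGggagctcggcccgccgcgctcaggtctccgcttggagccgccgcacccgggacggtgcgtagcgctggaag
The letters CCAAT, searched on both strands, occur in the promoters of 18 of the 45 collagen genes and in 34.6% of all RefSeq promoters. The first is a count of genes and the second a share of promoters, of which a gene can have several. The ratio of COL4A1 to COL4A2 RPKM was 0.677, 0.701 and 0.678 in shPDGFC against 0.707, 0.719 and 0.741 in shNC, lower in each shPDGFC library by a small amount. For COL4A5 to COL4A6 it was 2.13, 2.14 and 2.09 in shPDGFC against 2.06, 2.09 and 2.06 in shNC. With 3 libraries a group, these ratios were not tested.

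Of the type VI genes, COL6A1 and COL6A2 were tested. COL6A1 measured 18.9, 19.96 and 20.3 RPKM in the shPDGFC libraries, against 17.2, 17.8 and 17.1 RPKM in the shNC libraries, and rose (log2 change 0.17 ± 0.034 SE, adjusted p = 0.0089, limma). COL6A2, its partner chain, averaged 14.3 ± 0.73 RPKM in shPDGFC and 14.05 ± 0.41 RPKM in shNC, overlapped between the groups and did not pass (adjusted p = 0.65). The ratio of COL6A1 to COL6A2 was 1.24, 1.43 and 1.46 in shPDGFC against 1.19, 1.254 and 1.26 in shNC, so shPDGFC replicate 1 lay within the shNC range. COL6A3, the third chain of the usual trimer, had 19 reads in shPDGFC and 33 reads in shNC and was below the filter.

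**Figure D4:**
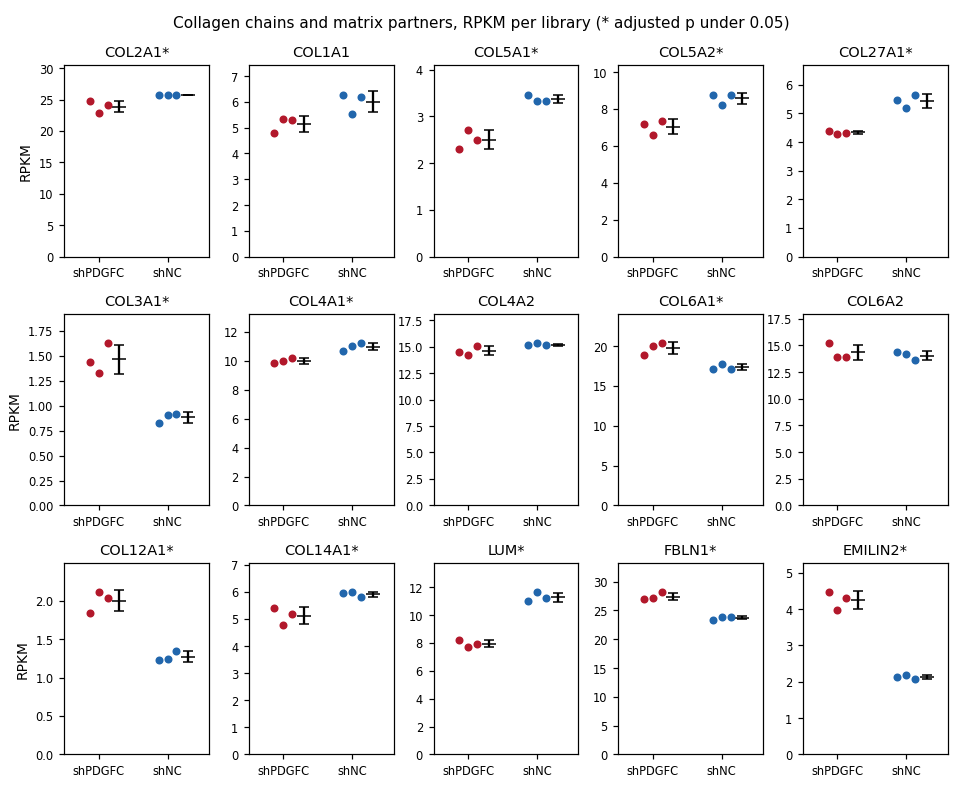
RPKM of 12 collagen chains and of LUM, FBLN1 and EMILIN2 in each library, shPDGFC in red on the left and shNC in blue on the right, with bars for the mean and SD (n = 3 each); axes start at 0 and an asterisk marks an adjusted p under 0.05. COL5A1, COL5A2, COL27A1 and LUM lie lower in shPDGFC, COL3A1, COL12A1 and EMILIN2 lie higher, and COL6A2 overlaps between the groups.

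Of the 12 chains in the remaining classes 4 were tested, and 0 of these 4 passed in limma with trended variance, also at an unadjusted p under 0.05. COL25A1 passed under 2 alternatives, limma without a variance trend (adjusted p = 0.041) and limma-voom on recovered reads (adjusted p = 0.0497). COL18A1 (5.08 RPKM in shPDGFC and 5.54 RPKM in shNC; adjusted p = 0.12), a basement membrane proteoglycan core that yields endostatin, shares 1401 exon bases with SLC19A1 on the opposite strand. The transmembrane collagens COL13A1 (1.79 RPKM in shPDGFC and 2.08 RPKM in shNC; adjusted p = 0.24) and COL25A1 (3.24 RPKM in shPDGFC and 3.55 RPKM in shNC; adjusted p = 0.13), and COL26A1 (3.47 RPKM in shPDGFC and 3.59 RPKM in shNC; adjusted p = 0.65), did not pass.

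EMILIN2 was the gene of the set with the largest rise. This elastin-associated glycoprotein measured 4.46, 3.97 and 4.30 RPKM in the shPDGFC libraries, against 2.14, 2.18 and 2.07 RPKM in the shNC libraries. Every shPDGFC library was well above the shNC libraries, and the level averaged 4.24 ± 0.25 RPKM in shPDGFC and 2.13 ± 0.055 RPKM in shNC (SD, n = 3 each). It rose 1.99-fold (log2 change 0.74 ± 0.056 SE, adjusted p = 0.00041, limma). EMILIN2 (ENSG00000132205, chromosome 18, 2847030 to 2915993, plus strand, GRCh38) ends 1001 bases from LPIN2, which did not pass (7.77 RPKM in shPDGFC and 7.69 RPKM in shNC; adjusted p = 0.79). Farther out on that side MYL12A (log2 change 0.06) and MYL12B (-0.01) did not pass, with only tested protein-coding genes considered as neighbours. On the other side SMCHD1 rose slightly (log2 change 0.12 ± 0.027 SE, adjusted p = 0.015), while NDC80 (log2 change -0.01) and METTL4 (0.11) did not pass. The promoter of EMILIN2 at chr18:2846756-2847055 (RefSeq, GRCh38.p14, plus strand) is shown as that of the gene with the largest rise. Capitals mark the core letters GGAATG of the TEAD motif, searched on both strands, 221 to 216 bases before the start.
EMILIN2: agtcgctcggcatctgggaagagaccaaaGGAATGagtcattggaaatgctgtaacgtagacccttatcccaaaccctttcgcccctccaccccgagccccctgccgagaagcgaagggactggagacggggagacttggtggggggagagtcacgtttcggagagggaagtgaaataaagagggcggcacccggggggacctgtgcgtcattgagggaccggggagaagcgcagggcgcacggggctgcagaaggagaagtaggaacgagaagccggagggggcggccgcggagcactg
GGAATG occurs in 14% of all RefSeq promoters and in the promoters of 6 of the 45 collagen genes (COL10A1, COL11A2, COL12A1, EMILIN2, LOXL3 and P4HA2), so its presence is common.

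Of the other matrix proteins of the set, LUM and FBLN1 passed the test, and DCN and EMILIN1 were not tested. LUM encodes lumican, a small proteoglycan that spaces collagen fibrils. It measured 8.24, 7.72 and 7.93 RPKM in the shPDGFC libraries, against 10.98, 11.6 and 11.2 RPKM in the shNC libraries, without overlap, and fell to 0.706 times the shNC level (log2 change -0.45 ± 0.037 SE, adjusted p = 0.00053, limma). FBLN1 encodes fibulin 1, a glycoprotein of basement membranes and elastic fibres. It measured 27.02, 27.1 and 28.1 RPKM in the shPDGFC libraries, against 23.4, 23.9 and 23.8 RPKM in the shNC libraries, and rose (log2 change 0.20 ± 0.026 SE, adjusted p = 0.0021, limma). DCN, for decorin, and EMILIN1 were below the filter (0.159 RPKM in shPDGFC and 0.162 RPKM in shNC for DCN; 0.355 RPKM in shPDGFC and 0.438 RPKM in shNC for EMILIN1).

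Below the filter were 23 collagen genes, with means over the 6 libraries between 0.0059 and 0.680 RPKM and between 4 and 781 reads in all. The 5 with the highest means were COL7A1 (0.626 RPKM in shPDGFC and 0.733 RPKM in shNC), the chain of anchoring fibrils, COL11A2 (0.631 RPKM in shPDGFC and 0.645 RPKM in shNC), COL6A6 (0.504 RPKM in shPDGFC and 0.679 RPKM in shNC), COL19A1 (0.426 RPKM in shPDGFC and 0.533 RPKM in shNC) and COL28A1 (0.467 RPKM in shPDGFC and 0.446 RPKM in shNC). The groups did not overlap in 7 of the 23, where 16.1% of protein-coding genes below the filter did not. That share is over 5624 genes with any reads, however few, and was not matched to the depth of the 23. COL5A3 and COL8A1 were higher in shPDGFC, and COL11A1, COL19A1, COL23A1, COL6A6 and COL7A1 were lower. When the filter was dropped, 0 of the 23 passed in limma, 2 had an unadjusted p under 0.05 (COL23A1 and COL8A1), and the smallest adjusted p was 0.11 for COL23A1 (0.273 RPKM in shPDGFC and 0.573 RPKM in shNC). COL10A1 had 2 reads in shPDGFC and 5 reads in shNC.

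The wider collagen pathway was followed in lists of genes outside the set. Each of their counts is to be read against the 14.2% of all tested genes that rose and the 15.6% that fell. Of 18 partners in procollagen folding and modification, all tested, 7 rose and 4 fell, with a median log2 change of 0.08. COLGALT1, which adds galactose to hydroxylysine, measured 36.6, 37.9 and 36.3 RPKM in shPDGFC and 31.8, 31.8 and 31.03 RPKM in shNC and rose (log2 change 0.22 ± 0.026 SE, adjusted p = 0.0015). P3H2, a prolyl 3-hydroxylase, measured 1.67, 1.94 and 1.89 RPKM in shPDGFC and 1.09, 1.04 and 1.11 RPKM in shNC and rose (log2 change 0.44 ± 0.074 SE, adjusted p = 0.0051). FKBP10, an endoplasmic reticulum prolyl isomerase that works with SERPINH1 on procollagen, measured 71.1, 70.4 and 71.9 RPKM in shPDGFC and 85.7, 85.4 and 81.8 RPKM in shNC and fell (log2 change -0.24 ± 0.026 SE, adjusted p = 0.0011). P3H4, a partner of the lysyl hydroxylase complex, measured 21.2, 19.9 and 20.8 RPKM in shPDGFC and 23.9, 24.4 and 23.2 RPKM in shNC and fell (log2 change -0.20 ± 0.032 SE, adjusted p = 0.0045; all limma). The folding list thus held changes in both directions.

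Of 20 genes of procollagen export from the endoplasmic reticulum, 11 rose and 2 fell, with a median log2 change of 0.11. The COPII coat subunits SEC24A (16.4 RPKM in shPDGFC and 12.7 RPKM in shNC; log2 change 0.35 ± 0.030 SE, adjusted p = 0.00061) and SEC13 (85.3 RPKM in shPDGFC and 72.2 RPKM in shNC; log2 change 0.24 ± 0.021 SE, adjusted p = 0.00074) rose. The retrieval receptor KDELR3 (24.7 RPKM in shPDGFC and 27.8 RPKM in shNC; log2 change -0.16 ± 0.028 SE, adjusted p = 0.0057) and MIA2 (10.4 RPKM in shPDGFC and 11.6 RPKM in shNC; log2 change -0.15 ± 0.031 SE, adjusted p = 0.010), a cargo receptor of exit sites, fell. SEC24A was higher in each shPDGFC library, at 16.5, 16.4 and 16.3 RPKM in shPDGFC and 12.3, 12.7 and 13.01 RPKM in shNC. Of 7 tested procollagen proteinases and enhancers, 0 rose and 0 fell in limma (median log2 change 0.03). ADAMTS3 and BMP1, which cleave the propeptides, had an unadjusted p under 0.05 (2 of 7), and limma-voom on recovered reads called 2 of the 7.

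Of 13 tested collagen-degrading proteinases and their inhibitors, 3 rose and 2 fell (median log2 change 0.08). The cathepsin CTSB (24.5 RPKM in shPDGFC and 21.3 RPKM in shNC; log2 change 0.20 ± 0.027 SE, adjusted p = 0.0024) and the inhibitor TIMP2 (19.04 RPKM in shPDGFC and 16.2 RPKM in shNC; log2 change 0.22 ± 0.031 SE, adjusted p = 0.0028) rose. RECK, a membrane inhibitor of metalloproteinases (2.52 RPKM in shPDGFC and 3.52 RPKM in shNC; log2 change -0.36 ± 0.060 SE, adjusted p = 0.0050), and MMP14, a membrane metalloproteinase that cleaves fibrillar collagen (0.874 RPKM in shPDGFC and 1.43 RPKM in shNC; log2 change -0.38 ± 0.095 SE, adjusted p = 0.023), fell. MMP14 reached the filter through the shNC libraries alone, where it is high, so its direction was fixed by the filter. Of 5 tested collagen receptors 1 rose and 2 fell (median log2 change -0.0045). MRC2, an endocytic receptor for collagen, measured 5.38, 5.75 and 5.33 RPKM in shPDGFC and 8.13, 8.44 and 8.51 RPKM in shNC and fell (log2 change -0.53 ± 0.041 SE, adjusted p = 0.00046), as did the collagen-binding integrin chain ITGA1 (1.84 RPKM in shPDGFC and 2.28 RPKM in shNC; log2 change -0.21 ± 0.062 SE, adjusted p = 0.040). Its partner chain ITGB1 rose (86.6 RPKM in shPDGFC and 77.2 RPKM in shNC; log2 change 0.16 ± 0.033 SE, adjusted p = 0.0099). Of 16 tested matrix partners of collagen and elastin, 5 rose and 4 fell (median log2 change -0.01). The fibrillins FBN1 (10.5 RPKM in shPDGFC and 7.38 RPKM in shNC; log2 change 0.46 ± 0.034 SE, adjusted p = 0.00041) and FBN2 (15.8 RPKM in shPDGFC and 13.1 RPKM in shNC; log2 change 0.26 ± 0.028 SE, adjusted p = 0.0011) rose, and EMILIN3 (3.81 RPKM in shPDGFC and 5.76 RPKM in shNC; log2 change -0.49 ± 0.050 SE, adjusted p = 0.0010) and EFEMP1 (5.41 RPKM in shPDGFC and 7.15 RPKM in shNC; log2 change -0.35 ± 0.041 SE, adjusted p = 0.0016), a fibulin, fell. EFEMP2, another of the 4 that fell, reached the filter through the shNC libraries alone. EMILIN3 thus changed in the opposite direction to EMILIN2.

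**Figure D5:**
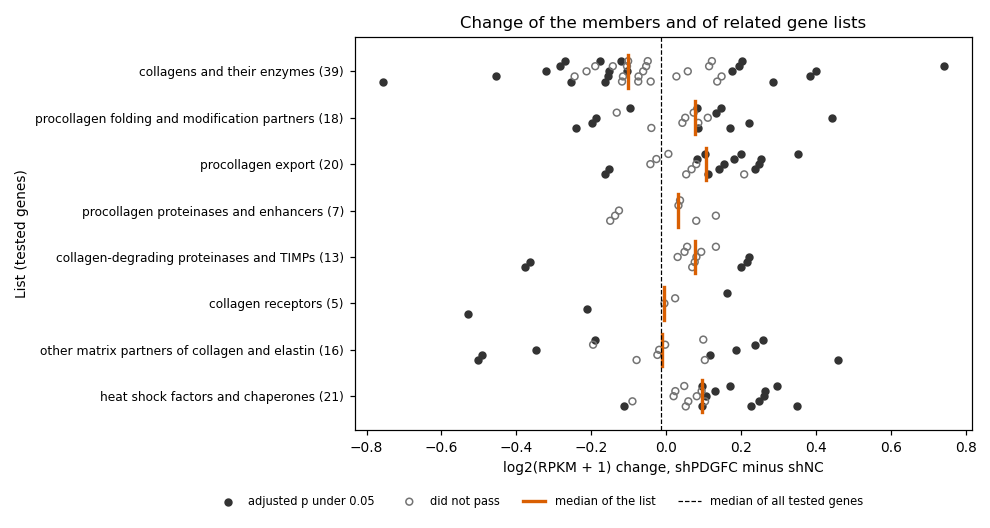
Log2(RPKM + 1) change, shPDGFC minus shNC, of each tested gene in the collagen set and in 7 related lists, with filled points for an adjusted p under 0.05, orange bars for each list's median and a dashed line for the median of all tested genes. The collagen set has its median at -0.10 and the export and heat shock lists at 0.11 and 0.10.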

How the data were processed

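The authors deposited 1 table of 60664 human Ensembl genes by 6 libraries, which the labels call raw counts. The deposited values are RPKM, as read from their structure: for 37040 of 37040 genes with a value they are whole multiples of 1 read (tolerance 1e-06), and the library totals given with the results follow from the worth of 1 read. Per the submitters' processing notes the builds were GRCm38 and mm10, which are mouse builds, although the identifiers are human. Which aligner, counter and strand setting were used is not given in the sources used here. Symbols were matched for 60652 identifiers, coordinates come from GENCODE 29 (GRCh38), and promoters from RefSeq (GRCh38.p14), matched for 45 of 62 genes.

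Genes with at least 1 RPKM in at least 3 libraries were tested with limma 3.58.1 (R 4.3.3, trended variance) on log2(RPKM + 1), with Benjamini-Hochberg adjustment over all 15337 genes and a threshold of 0.05. Fold changes on this scale understate the change of genes with low values; ratios named as a level are of mean RPKM. Libraries of a group differed by more than sampling noise (chi-square per degree of freedom 1.46 to 2.57 within groups, 7.09 to 9.97 between groups), and none was left out. Members and lists were chosen with earlier results of these data known. Values per library are given for genes that passed, for the 6 most abundant tested genes and for the 3 with the largest change that did not pass; from each related list, the 2 with the smallest p in each direction are named. Alternatives were the pseudocount (0.1 or 0.5), the filter (none, or 3 RPKM), scaling, totals without mitochondrially encoded genes, variance without a trend, limma-voom on recovered reads, a replicate block and leaving out each library. Counting error alone underlies the read limits given for genes near 0.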

Additional observations from a re-analysis of the deposited data

How the results depend on the processing

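Under 16 alternatives, 14 of the 19 genes that passed kept their call wherever they were tested, and COL14A1, COL2A1, COL4A1, PLOD2 and COL9A2 lost it under some. The number of members that rose stayed between 6 and 8. The number that fell was 12, and it was 7 with no filter on low values and between 7 and 10 when 1 library was left out. The largest number, 16, came from limma-voom on recovered reads. COL1A1, COL25A1, COL4A3, COL4A4 and PLOD3 passed under at least 1 alternative. COL6A2 changed sign, with a log2 change of -0.0114 without shPDGFC replicate 1, in a range of -0.0114 to 0.0477 over the libraries left out. Correlations of deviations between libraries of equal replicate number were -0.10, -0.11 and -0.02, so no effect shared by equal numbers was seen. With 3 libraries in each group, these values cannot decide whether the libraries were prepared in pairs. With the replicate block, 8 members rose and 9 fell, COL14A1 (limma, adjusted p = 0.060), COL2A1 (0.074) and COL4A1 (0.052) no longer passed, and PLOD3 did (0.042); over all genes 1628 rose and 1841 fell, against 2173 and 2398 without it. Depth limits the 10 members with fewer than 100 reads in all.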
